A study of Mus musculus with 8 samples.

Results

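The microRNA genes with early numbers, up to Mir224, were described in the cochlea of mice that lack Mir183 and Mir96. They were taken as the array features that the platform annotation links to exactly 1 gene symbol, where that symbol begins with Mir and a number no higher than that of Mir224. This gave 149 features for 147 genes, out of 22180 genes with such a feature on the array. Where a gene had 2 features, Mir9-1 and Mir191, the one with the higher mean signal stood for it. Of the 147, 142 were microRNA genes and 5 were long host transcripts that carry a microRNA name: Mir100hg, Mir99ahg, Mir124-2hg, Mir1a-1hg and Mir9-3hg. A further 29 features join such a symbol to other genes, as in Vmp1 with Mir21a, and were left out.

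The study compared 4 miR-183/96 knockout mice with 4 control mice, called wild type in the series design, all at postnatal day 16. Each array holds RNA from both whole encapsulated cochleae of 1 animal, so bone, marrow and adhering tissue were present beside the sensory epithelium. The sources used here do not give strain, sex or how the deletion was made. In bulk tissue, fewer cells of a type and less RNA per cell cannot be told apart. The cochlear genes Coch and Otos read 10.5 on the log2 scale, and 10 hair cell markers had mean signals between 4.12 and 6.27. Knockout minus control, these 10 had a median log2 difference of 0, from -0.14 to 0.06, and of -0.09 after cyclic loess normalization. The median of 15 cochlea markers was -0.10, from -0.37 to 0.10. Their part in the values of microRNA genes was not tested.

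A microRNA gene is transcribed as a long primary transcript, from which Drosha with Dgcr8 cuts a hairpin and Dicer1 then cuts the mature strand. The mature strand guides Argonaute proteins to messenger RNAs that match its seed, bases 2 to 8, so genes that share a seed can share targets. Mir183, Mir96 and Mir182 form a cluster expressed in hair cells and other sensory cells, and changes in the seed of miR-96 cause hearing loss. The array reads copied total RNA with probes against each annotated gene. It does not separate primary transcript, hairpin and mature strand, and signals of different features are not amounts that can be set against each other.

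The 3 mature strands of the targeted cluster are shown first because the study is about them, with the seed in capitals. They are given 5′ to 3′ from RefSeq on build GRCm38.p6, where 130 of the 147 genes matched. The sources used here do not give the genome build of the array.
miR-183-5p: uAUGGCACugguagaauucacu
miR-96-5p: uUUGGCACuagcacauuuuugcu
miR-182-5p: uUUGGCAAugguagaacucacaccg
They lie on the minus strand at chr6:30169711-30169732, chr6:30169506-30169528 and chr6:30165962-30165986. The seed of miR-96-5p shares 6 of its 7 bases with that of miR-182-5p and also 6 with that of miR-183-5p. The seeds of miR-182-5p and miR-183-5p share 5. The hairpins of Mir183 and Mir96 are 116 bases apart, and 3453 bases separate Mir96 from Mir182. RefSeq places all 3 within the noncoding gene Mirc35hg. The hairpin of Mir96, at chr6:30169446-30169551, is shown with its 5p strand in capitals.
Mir96: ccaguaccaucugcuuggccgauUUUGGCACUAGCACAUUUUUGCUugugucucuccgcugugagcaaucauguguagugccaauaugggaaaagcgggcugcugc

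Mir96 fell in the knockout cochlea, and it was the only 1 of the 147 genes that passed the test. Its feature, 17465480, read 4.01, 4.26, 4.26 and 4.31 in the knockout animals and 5.71, 5.26, 6.23 and 5.57 in the controls. No knockout value reached the lowest control value. The log2 difference, knockout minus control, was -1.48 (SE 0.17), a signal 2.79-fold lower, with a limma p of 7.92e-07 and 0.00932 after Benjamini-Hochberg adjustment over 23521 features. Over all those features 0.0128% passed as lower and 0% passed as higher. Leaving out control replicate 1 ended the call (adjusted p = 0.0677), as did fitting every feature of the value table (adjusted p = 0.184), with the difference at -1.48 in both.

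The other 2 genes of the cluster did not pass. The sources used here do not say whether the probes of these 3 features lie inside the deleted segment, so the values do not check the deletion. Mir183, which the genotype name also gives as deleted, read 2.40, 2.38, 1.82 and 2.38 in knockout and 2.45, 2.23, 2.79 and 2.84 in control animals. The groups overlapped at a signal near the bottom of the array, the 3.51th percentile of all features (difference -0.33, SE 0.18, limma adjusted p = 0.398). Mir183 was negative in every alternative fit that held it, from -0.49 to -0.19, and passed in none. After cyclic loess normalization it was at -0.43 (limma unadjusted p = 0.0246, adjusted p = 0.456). With the spread of values on each array as a covariate it was at -0.35. Mir182, which the genotype name leaves out, read 4.23, 3.46, 4.00 and 4.01 in knockout and 3.81, 3.49, 3.70 and 3.33 in control animals, also with overlap (difference 0.35, SE 0.17, adjusted p = 0.364). That difference was 0.20 after cyclic loess normalization and 0.01 with the spread of values on each array as a covariate.

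Whether the 3 features changed unequally was tested on their log2 ratios within each array, which carry no information on relative amounts. Between genotypes the ratio of Mir96 to Mir182 differed by -1.83 (n = 4 a group, two-sided exact permutation p = 0.0286, the smallest that 70 assignments allow, and 0.0429 adjusted over 3 pairs). The ratio of Mir96 to Mir183 differed by -1.15 (exact permutation p = 0.0286, adjusted 0.0429), and that of Mir182 to Mir183 by 0.68 (exact permutation p = 0.0857). Both ratios that passed contain the separation of Mir96 already given, so they are not further evidence of it.

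**Figure D1:**
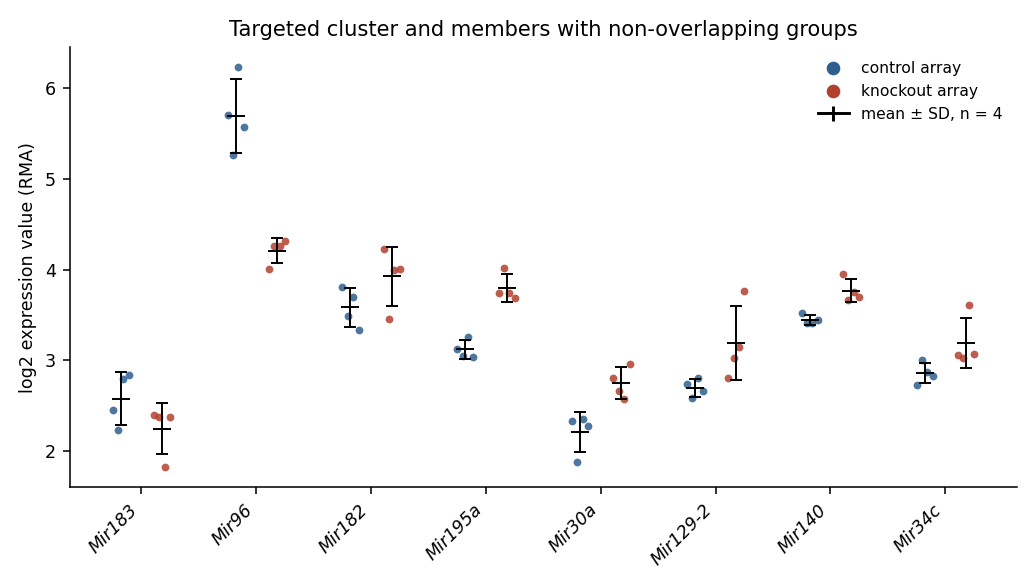
Log2 expression values of 8 microRNA genes in each of the 4 control and 4 knockout arrays, with the mean and SD of each group. Mir96 separates downward, while Mir195a, Mir30a, Mir129-2, Mir140 and Mir34c read higher in every knockout array without passing the adjusted threshold.

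Most of these features were dim. Their mean log2 signal over the 8 arrays ran from 1.51, in Mir124a-3, to 11.03, in Mir101c, with a median of 4.15, where all tested features had a median of 5.45. A mean below 5 was found in 112 of the 147, or 76.2%, against 35.2% of all features. Only 4 genes read above 7 and 43 read below 3. No detection call was used here, so a dim feature could not be told from background.

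In the hairpins, base composition went with the signal. Over 122 hairpins of 64 to 119 bases, with a GC content of 33% to 69.2%, the median signal was 3.34 in the 41 hairpins with the lowest GC, 3.59 in the next 40 and 4.75 in the 41 with the highest. Spearman's rho of GC and signal was 0.42 across these genes, which share the same arrays and are not independent replicates. The rho of GC with the knockout difference was 0.09.

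Arrays also differed in how widely their values spread. Across features, the log2 values of an array had an SD of 1.40 ± 0.03 among knockout animals, against 1.49 ± 0.06 among controls (n = 4, two-sided exact permutation p = 0.0571), so this difference did not pass. Ordered by signal into 10 equal bins, all features had a median difference of 0.13 in the lowest bin and -0.21 in the highest. The spread of each array entered some fits below as a covariate, called the signal range covariate, and its part in the values was otherwise not tested. This covariate went largely with genotype, at 1.37 to 1.44 in knockout and 1.41 to 1.56 in control arrays. Such a fit can therefore take out part of the genotype difference itself. A sign that turns in it cannot be assigned to spread or to genotype.

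Apart from Mir96, differences were small. As deposited, 96 of the 147 were positive (65.3%), where 69.1% of all features at the same signal levels were. After cyclic loess 68 were positive (46.3%), with a median of -0.01, and with the signal range covariate 58 were (39.5%). The median over the 147 genes was 0.06, against 0.01 over all features, and 117 genes lay within 0.3 of no difference. At an unadjusted limma p under 0.05, 15 read higher and 3 lower, or 18 of 147 (12.2%), where 14.3% of all features reached that p. All features divided evenly, 7.04% higher and 7.25% lower, but that split goes with signal. Among all features at the signal levels of the 147 genes, weighted by bins, 10% were higher and 2.97% lower, against 10.2% and 2.04% of the 147. The counts in both directions were therefore near the background of their level. The split was 9 higher and 10 lower after cyclic loess, 8 and 10 after repeated quantile normalization and 2 and 13 with the signal range covariate. The higher count was 26 without knockout replicate 2 or without control replicate 3, 9 without knockout replicate 4 or control replicate 2 and 8 without control replicate 4. The lower count was 1 without knockout replicate 2. Beside Mir96, none of these genes passed after adjustment (adjusted p from 0.192 to 0.344). Mir130a, whose microRNA is known from blood vessels, was among the 3 lower at -0.42 (adjusted p = 0.335), reading 2.66, 2.95, 3.57 and 3.43 in knockout and 3.73, 3.48, 3.38 and 3.72 in control animals, with overlap.

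**Figure D2:**
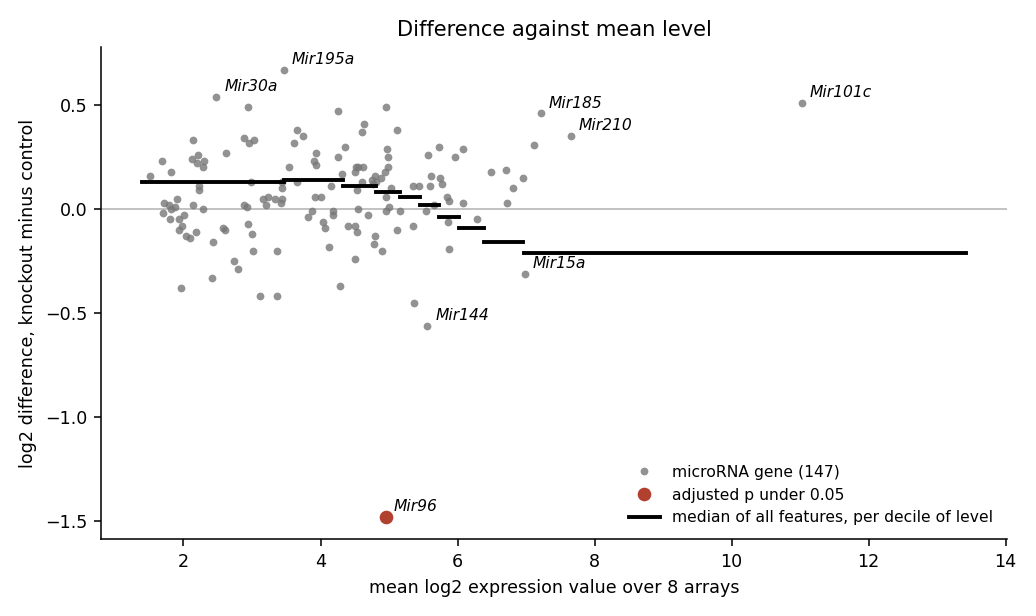
Log2 difference, knockout minus control, of each of the 147 microRNA genes against its mean log2 signal over the 8 arrays, with black bars for the median of all tested features in each of 10 bins of signal. Mir96 lies alone at -1.48, and the few bright microRNA genes, such as Mir101c, Mir185 and Mir210, lie above the bars of their level while Mir15a lies below.

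Groups did not overlap at 6 genes. Mir96 was the only one with all knockout values below (1 of 147, against 2.65% of all features), and 5 had all knockout values above (3.4%, against 3.3% of all features). That share was near the background.

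Mir195a, a member of the miR-15 and miR-16 family, whose members limit the cell cycle, had the smallest p after Mir96. It read 3.74, 4.02, 3.74 and 3.69 in knockout and 3.13, 3.05, 3.26 and 3.04 in control animals. The gap between the groups, from 3.26 to 3.69, was wider than the spread within either. The difference was 0.67 (SE 0.13, unadjusted p = 0.000109, adjusted p = 0.192), 0.54 after cyclic loess and 0.63 with the signal range covariate. The adjusted p ran from 0.0636 to 0.654 over the alternatives. The signal itself was at the 9.92th percentile of features.

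Mir30a, of a family expressed in many tissues, read 2.81, 2.66, 2.57 and 2.96 in knockout and 2.33, 1.88, 2.35 and 2.27 in control animals (difference 0.54, SE 0.15, adjusted p = 0.291). Its groups lay apart, at the 3.85th percentile of signal. Mir140, whose microRNA is abundant in cartilage, read 3.95, 3.67, 3.75 and 3.70 against 3.52, 3.41, 3.41 and 3.44 (difference 0.32, SE 0.12, adjusted p = 0.305), and 0.18 after cyclic loess. Mir34c, a p53-responsive microRNA gene of ciliated epithelia, read 3.61 in knockout replicate 3, while the other knockout values lay between 3.03 and 3.07 and the controls between 2.73 and 3.00. Mir129-2, of a neuronal microRNA, read 2.81, 3.03, 3.15 and 3.76 in knockout and 2.58 to 2.80 in control animals, so that the lowest knockout and the highest control value nearly met (difference 0.49, adjusted p = 0.305).

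The second gene of the same microRNA read the other way. Mir129-1 and Mir129-2 encode an identical strand, shown because only the precursors can differ.
miR-129-5p: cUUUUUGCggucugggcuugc
Mir129-1 had a difference of -0.18 and Mir129-2 of 0.49, a contrast that was not tested. Of the 17 mature strands encoded by more than 1 of these genes, most came from genes whose differences had the same sign. Among the others, the pair for miR-138-5p was at 0.32 in Mir138-1 and -0.17 in Mir138-2. For miR-7a-5p the pair was at 0.20 in Mir7-1 and -0.37 in Mir7-2. The 3 genes of the neuronal miR-9-5p were at 0.18, 0.11 and 0.11. A second feature of Mir9-1 read -0.11.

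Among the 8 genes with the highest signals, 7 had positive differences. Mir101c, whose mature strand lies at chr9:3038680-3038698, stood apart at 11.03, at the 99.8th percentile. It read 11.38, 11.13, 11.23 and 11.38 in knockout and 10.80, 10.48, 11.38 and 10.43 in control animals, and control replicate 3 matched the highest knockout values (difference 0.51, SE 0.18, adjusted p = 0.301). Mir185 read 7.30, 7.27, 7.50 and 7.74 in knockout and 7.31, 6.72, 7.31 and 6.61 in control animals (difference 0.46, adjusted p = 0.305). In both genes control replicates 2 and 4 were the lowest arrays.

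Mir210, a hypoxia-induced microRNA gene, was at 0.35, and Mir92b, of neural progenitors, at 0.31. Mir181d was at 0.15, Mir181c at 0.10 and Mir99b at 0.03. With the signal range covariate all 7 turned negative, Mir101c to -0.07, Mir185 to -0.03, Mir210 to -0.15, Mir92b to -0.03, Mir181d to -0.17, Mir181c to -0.37 and Mir99b to -0.39. Mir15a was the exception at -0.31 (6.27 to 7.20 in knockout, 6.89 to 7.38 in control animals, adjusted p = 0.421). It was -0.12 without knockout replicate 1, its lowest array, -0.18 after cyclic loess and -0.07 with the level of the skeletal muscle messenger RNAs as a covariate.

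The 27 microRNA genes in the upper 5 of the 10 signal bins had a median difference of 0.12, and 21 of them were positive. All features of those bins had a median of -0.10, and 31.3% were positive. After cyclic loess these medians were 0.12, with 20 positive, and -0.05, with 37.6% positive. With the signal range covariate the direction turned, to a median of -0.10 with 8 of the 27 positive, where all features of those bins had a median of 0 and 50.9% positive. At an unadjusted p under 0.05, 4 of the 27 were higher (14.8%, against 3.59% of all features of those bins) and 0 were lower, and 0 passed after adjustment. In the lowest 2 bins the 80 microRNA genes had a median of 0.04, where all features of that level had 0.13.

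Later-numbered microRNA genes were read in the same way. Of 325 with a number beyond that of Mir224, 77.2% had a positive difference as deposited, where 66.4% of all features at their signal levels did. At an unadjusted p under 0.05, 52 were higher (16%, against 9.58% of all features at those levels) and 1 was lower (0.308%, against 3.88%). The 11 let-7 genes had a median of 0.10. Whether these sets differ from the early-numbered genes was not tested.

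Genes that share a seed were then compared, since they can act on the same targets. Among the mature strands of the 130 genes with a sequence, 48 seeds occurred in more than 1 gene, covering 86 genes. All members had the same sign in 26 of these and mixed signs in 22. Some genes count under more than 1 seed, as Mir128-1 and Mir128-2 do. As deposited, 65.3% of the 147 genes were positive, and agreement within seeds was not tested against that share. The families of Mir195a, Mir20a and Mir30a are shown, being those of at least 4 genes with a member at an unadjusted p under 0.05, for their common seed, in capitals, and their differing remainder.
miR-195a-5p: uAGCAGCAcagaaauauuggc
miR-15a-5p: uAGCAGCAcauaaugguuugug
miR-15b-5p: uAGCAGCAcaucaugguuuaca
miR-16-5p: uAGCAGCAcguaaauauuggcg
miR-17-5p: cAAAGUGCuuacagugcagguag
miR-20a-5p: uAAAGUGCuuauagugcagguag
miR-20b-5p: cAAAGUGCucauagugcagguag
miR-106b-5p: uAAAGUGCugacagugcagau
miR-30a-5p: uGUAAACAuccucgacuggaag
miR-30c-5p: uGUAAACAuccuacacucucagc
miR-30e-5p: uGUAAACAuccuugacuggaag

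The family with the seed of Mir195a had mixed signs. Mir195a was at 0.67, Mir16-1 at 0.27 and Mir16-2 at 0.20, while Mir15b was at -0.10 and Mir15a at -0.31. With the signal range covariate the signs of both Mir16-2 (-0.12) and the family median (-0.12) turned. Mir195a shared its seed with 4 measured genes, none of which reached an unadjusted p under 0.05.

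In the growth-promoting miR-17 family all 4 measured genes were positive, with Mir20a at 0.38, Mir20b at 0.37, Mir17 at 0.20 and Mir106b at 0.18. Mir20a read 4.09, 3.60, 3.72 and 3.96 in knockout and 3.36, 3.61, 3.50 and 3.38 in control animals, overlapping at 1 value. The family median of 0.29 was 0.15 after cyclic loess and -0.15 with the signal range covariate. Among miR-30 genes with a sequence here, beside Mir30a at 0.54, Mir30c-2 was at 0.25, Mir30e at 0.09 and Mir30c-1 at -0.01. Mir30b and Mir30d, of the same family by name, had no sequence here and were left out of the seed groups. After cyclic loess they were at -0.02 and 0.04, where Mir30a was at 0.44. With the signal range covariate they were at 0.17 and -0.30, where Mir30a was at 0.37. Mir30c-1 itself ranged from 2.98 to 4.96 among knockout animals. The largest seed group among genes with a sequence, the 6 genes of miR-181, ran from -0.45 to 0.15 with 0 at an unadjusted p under 0.05. The metabolic miR-103 and miR-107 genes were at 0.41 (Mir103-2), 0.29 (Mir107) and 0.20 (Mir103-1), a median of 0.29 that became -0.01 with the signal range covariate.

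**Figure D3:**
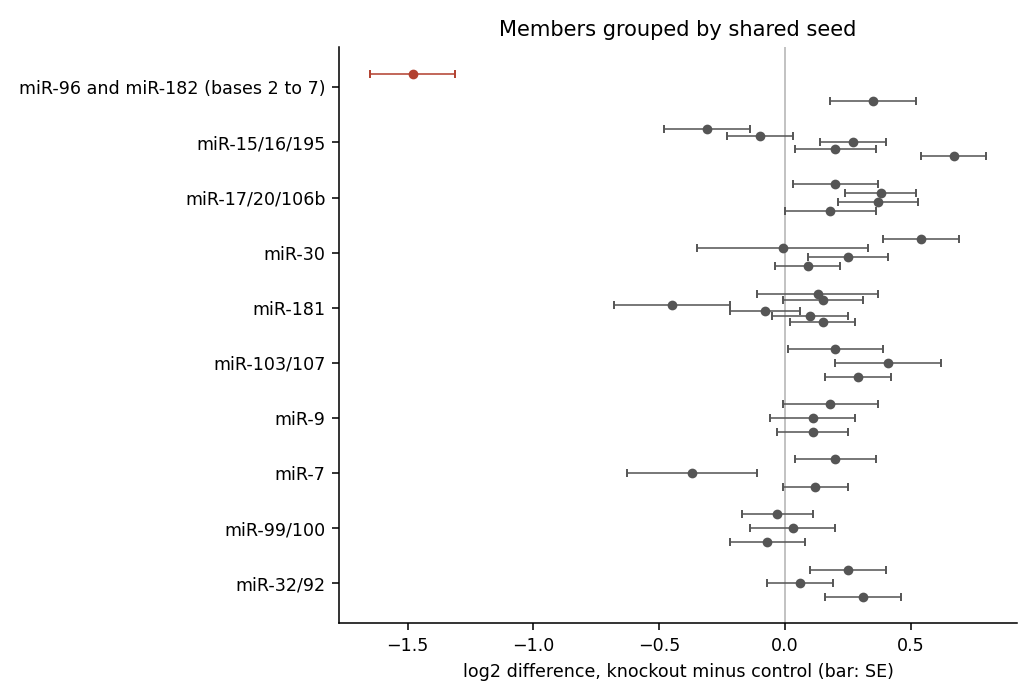
Log2 differences, knockout minus control, with limma's SE for genes grouped by the seed of their mature strand, and for Mir96 and Mir182, which share bases 2 to 7. Mir96 at -1.48 and Mir182 at 0.35 lie on opposite sides, and the miR-15, miR-16 and miR-195 genes spread from -0.31 to 0.67.

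Neighbours on the chromosome, which can be cut from 1 transcript, were compared next. The 130 genes with a RefSeq sequence included 20 groups of 2 to 4 genes on 1 strand with gaps of at most 10 kb, 45 genes in all. The spread of differences within a group had a median of 0.22, and 14 groups held both signs. The cluster of Mir96 had the widest spread of these groups, 1.83, followed by 0.79 in the X-linked group of Mir20b (0.37) and Mir18b (-0.42). Mir212 (0.38) and Mir132 (-0.20), activity-induced neuronal microRNA genes, differed by 0.58, as did Mir181a-1 (0.13) and Mir181b-1 (-0.45) and the neighbours Mir16-1 (0.27) and Mir15a (-0.31). Mir141 (0.34) and Mir200c (0.29), both epithelial, were close together, as were Mir34c (0.33) and Mir34b (0.25). These spreads were not tested.

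Of the 122 genes with a RefSeq hairpin, 60 lie within another gene on the same strand, and 44 of these have a host with a feature of its own, 41 hosts in all. Of 38 pairs with a protein-coding host, 29 microRNA genes were positive (median 0.13), while 29 hosts were negative (median -0.14), and 12 pairs had the same sign. No host passed after adjustment, and 7 pairs had a host at an unadjusted p under 0.05, 6 lower and 1 higher. Of all features 7.25% were lower and 7.04% higher at that p. In the upper 5 bins of signal, where most hosts lie, 13.3% were lower and 3.59% higher. Wwp2, a ubiquitin ligase gene that hosts Mir140, read 6.33, 6.67, 6.67 and 6.40 in knockout and 7.03, 6.96, 6.49 and 7.02 in control animals (difference -0.36, adjusted p = 0.307), where Mir140 was at 0.32. Tango2, host of Mir185, was at -0.07 and Ctdsp1, host of Mir26b (0.47), at -0.13. Hoatz, a ciliary gene around Mir34b and Mir34c, was at 0.33, the same way as both (limma adjusted p = 0.351, with overlap). Its mean signal of 2.63 lay in the lowest bin, where all features had a median difference of 0.13. The hosts had a median signal of 6.01, at the upper edge of a bin where all features had a median difference of -0.04. In the brighter bins that median ran from -0.09 to -0.21, and no background weighted by bins was computed for hosts. With the signal range covariate the median of the 36 distinct hosts was 0.02.

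**Figure D4:**
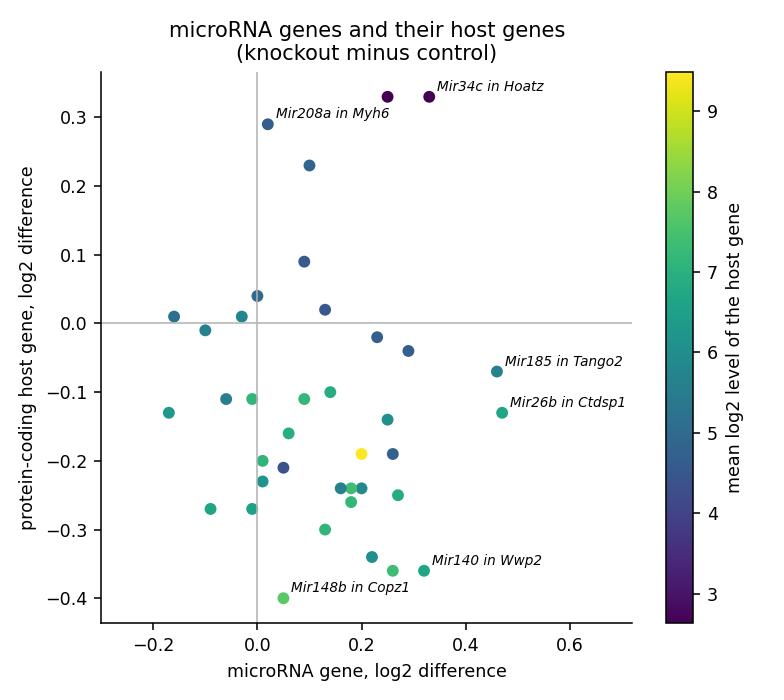
Log2 difference of each protein-coding host gene against that of the microRNA gene inside it, coloured by the mean log2 signal of the host. Most of the 38 points lie to the right of 0 and below 0, and the pairs of Hoatz lie at the upper right at 0.33.

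MicroRNA genes typical of a tissue were read beside the messenger RNAs of that tissue. The 7 muscle microRNA genes, such as Mir1a-1, Mir133a-1 and Mir206, had differences from -0.16 to 0.02, and 0 of the 7 reached an unadjusted p under 0.05. The 14 skeletal muscle messenger RNAs had a median difference of -0.72, and all 14 were negative. Their mean level was 8.33 in control replicate 2 and 5.49 to 6.86 in the other arrays. In control replicate 2 Mir206 read 1.75, within its range of 1.64 to 1.77 over the arrays, and Mir1a-1 read 1.79, its lowest value. Myh4, a fast myosin, read 9.59 there and spanned 4.50 log2 units over the arrays. Both features lie at the bottom of the array, at the 0.383th and 1.5th percentile of signal. Of the brighter features, Mir133a-2 read 4.19 there, the second highest of its 8 values (2.96 to 4.59), and Mir133b 4.62 (4.34 to 4.78). The list mean was 2.86 there and 2.63 to 2.85 in the other arrays.

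**Figure D5:**
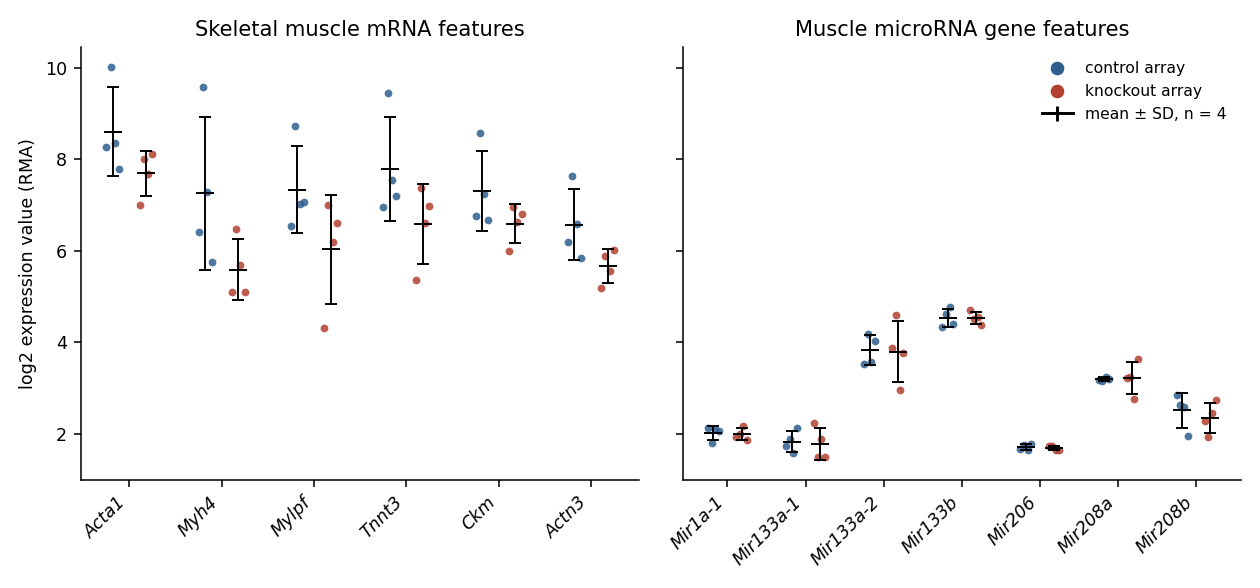
Log2 expression values of 6 skeletal muscle messenger RNA features and 7 muscle microRNA gene features in each array, with the mean and SD of each group of 4. The messenger RNAs spread by several log2 units with control replicate 2 highest. Of the microRNA features, Mir206 has the narrowest range, 1.64 to 1.77, and Mir133a-2 the widest, 2.96 to 4.59.

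In the neuronal list, 22 microRNA genes had a median of 0.11. Mir129-2, Mir212 and Mir138-1 (0.32) were higher at an unadjusted p under 0.05, or 13.6% of the list, and 0 were lower. Of all features 14.3% reached that p in either direction and 7.04% were higher. At the signal levels of the 147 genes, 10% of all features were higher. After cyclic loess 0 were higher and 2 lower. The 7 epithelial genes were all positive as deposited, with Mir141, Mir200c and Mir203 (0.20) at the smallest p, and 4 were positive after cyclic loess. In the blood and marrow list, Mir144, an erythroid microRNA gene, read 5.16, 5.43, 6.13 and 4.42 in knockout and 5.58, 5.99, 5.44 and 6.36 in control animals (difference -0.56, SE 0.29, adjusted p = 0.386). The erythroid membrane genes Slc4a1 (-0.41, adjusted p = 0.335) and Rhag (-0.45, adjusted p = 0.351) were lower too, with overlap and without passing. Both lie in the brightest bin, where all features had a median of -0.21. Their part in the value of Mir144 was not tested. With the signal range covariate Mir144 turned to 0.08, and the median of the 12 blood and marrow messenger RNAs turned from -0.25 to 0.22. Mir146, an inflammation-induced gene, was at 0.33 and Mir181b-1 at -0.45, and neither passed.

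In the remaining lists no gene was called. Among mesenchymal genes Mir29a, whose microRNA represses collagens, read 2.08, 1.71, 1.67 and 1.62 in knockout and 1.84, 2.55, 2.23 and 1.98 in control animals (difference -0.38, adjusted p = 0.339), near the floor of the array, and Mir199b was at -0.14. The smooth muscle genes Mir143 (0.04) and Mir145a (-0.11) and the endothelial Mir222 (-0.20) did not pass. Mir204 (0.01) and Mir211 (0.09), of pigment cells, had mean signals of 1.88 and 4.53. In the last list Mir23a was at 0.10, Mir23b at -0.10 and Mir27a at 0.03.

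Genes of microRNA processing and silencing had mostly negative differences, and none was called. Of 23 measured, 20 had a negative difference, with a median of -0.21, and 2 were lower and 0 higher at an unadjusted p under 0.05. That is 8.7% of the list, where 14.3% of all features reached that p. In the upper 5 bins of signal, where most of the list lies, 13.3% of all features were lower at that p. There 31.3% of all features were positive, against 13% of the list. Tut4, which adds uridines to precursors, was at -0.39 (SE 0.16, unadjusted p = 0.0318) and the exonuclease gene Xrn1 at -0.41 (SE 0.18, unadjusted p = 0.0363). The Argonaute gene Ago3 was at -0.36, Ddx17 of the nuclear processing complex at -0.30 and Prkra, a Dicer partner, at -0.23. Drosha was at -0.17, the exporter Xpo5 at -0.21, Dicer1 at -0.24 and Ago2 at -0.21. The list median was -0.14 after cyclic loess and 0.03 with the signal range covariate, and its median signal was 6.32, where all features had a median of -0.09.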

How the data were processed

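The deposited values are log2 expression values at gene level, summarised by the authors with RMA in Affymetrix Expression Console, according to the submitters' processing notes and the labels. The sources used here name no software version. The range of the values fits a log2 scale, and no detection call was used. The 41345 features were named through the platform annotation, and the 23521 with exactly 1 symbol were fitted in limma 3.58.1 under R 4.3.3 (lmFit, eBayes with an intensity trend, genotype as the only term), with Benjamini-Hochberg adjustment over all of them and a threshold of 0.05. The 147 symbols matched the RefSeq gene table of GRCm38.p6. Each array is 1 animal, and precision is limited by having 4 arrays in a group.

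The microRNA genes and gene lists were chosen with earlier results of these data known. Named were the targeted cluster and Mir195a, called genes, the 8 brightest, those with non-overlapping groups at an unadjusted p under 0.05, and up to 3 genes of each microRNA list and 5 of the processing list with the smallest p. Other genes were named for a shared seed, locus, strand or host after their values were seen. Alternatives covered the replicate number as a block, variance models, filters, normalizations, array weights, 2 covariates and each array left out. The fit was tested on simulated data.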

Additional observations from a re-analysis of the deposited data

Results flagged for a closer look

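Among 82 groups of 4 arrays, for 41 named microRNA genes, 6 had 1 array far from the other 3. Chance alone gives about 1 such group in 20. Mir96 read 4.01 in knockout replicate 1, while the other knockout values lay between 4.26 and 4.31. Mir183 read 1.82 in knockout replicate 3 and 2.38 to 2.40 in the others. Mir195a read 4.02 in knockout replicate 2 and 3.69 to 3.74 in the others. Mir34c read 3.61 in knockout replicate 3 and 3.03 to 3.07 in the others. Mir222 read 3.27 in knockout replicate 4 and 2.76 to 2.83 in the others. In the controls, Mir23b read 5.12 in replicate 4 and 5.19 in the others.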

How the results depend on the processing

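Mir96 was negative in every fit that held it, from -1.90 to -1.30. It was called in all of them except the fit of all features (adjusted p = 0.184, difference -1.48) and the one without control replicate 1, and its range was -1.62 to -1.30 with 1 array left out. With its mean of 4.95 it did not enter the fit restricted to means of 5 or more, nor that of the brighter features (those above the median), where 0 genes were called. The count of called genes was 0 in the fit of all features and 0 to 1 with 1 array left out. At an unadjusted p under 0.05 the higher and lower counts were 9 and 1 in the fit of all features, 5 and 0 among means of 5 or more, 3 and 0 among the brighter features, 8 and 10 after repeated quantile normalization, 9 and 10 after cyclic loess, 2 and 13 with the signal range covariate, 23 higher with array weights and 9 higher with the muscle covariate. With 1 array left out they were 8 to 26 higher and 1 to 4 lower. The median of the 147 genes stayed between -0.04 and 0.11, and was 0.11 and 0.12 over the 35 and 27 genes left by the filters, moves no larger than the spread between arrays (0.12). The labels do not say whether the replicate numbers pair the animals. Between the knockout and control array of each number, deviations from group means correlated at 0.0802, 0.129, 0.137 and -0.231. Arrays of unlike number were not compared, so a pairing is not excluded. With the replicate block, 1 gene was called and 20 were higher and 3 lower.

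Signs of genes that were not called turned under some settings, and the cause was not tested. With the signal range covariate the values were -0.07 for Mir101c, -0.15 for Mir210, -0.03 for Mir185 and Mir92b, -0.17 for Mir181d, -0.37 for Mir181c, -0.39 for Mir99b, 0.20 for Mir133a-1, -0.04 for Mir141, -0.07 for Mir200c, 0.08 for Mir144, -0.40 for Mir143, -0.64 for Mir211 and -0.11 for Mir20b. Mir204 was at -0.02 after median centring, -0.06 after quantile normalization, -0.07 after cyclic loess, -0.08 with array weights and -0.11 with the muscle covariate. Mir211 was at -0.03 after quantile normalization and -0.04 after cyclic loess, Mir23a at -0.01 after cyclic loess, and Mir99b at 0 after median centring and -0.12 with the muscle covariate. With 1 array left out, the ranges of those that turned were -0.07 to 0.18 for Mir99b, -0.15 to 0.14 for Mir204, -0.07 to 0.34 for Mir211, -0.08 to 0.37 for Mir23a, -0.04 to 0.10 for Mir27a, -0.20 to 0.04 for Mir133a-1, -0.10 to 0.15 for Mir143, -0.11 to 0.01 for Mir1a-1 and -0.25 to 0.02 for Mir145a.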
